A study of Mus musculus with 141 samples.

Results

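The chemokine ligand genes were taken as all protein-coding genes whose symbol begins with Ccl, Cxcl, Xcl or Cx3cl followed by a number, which gave 37 genes of the 36558 listed, of which 21817 are protein-coding. Their expression was measured by RNA-seq in inguinal white adipose tissue (iWAT), the subcutaneous fat pad of the groin, from females and males of many inbred and recombinant inbred mouse strains that together form the Hybrid Mouse Diversity Panel, or HMDP. All mice in both sexes received chow until 8 weeks of age and then a diet rich in fat and sucrose (HF/HS) for 8 weeks, so no chow-fed group is part of the comparison. There were 67 female and 74 male libraries from 82 strains, and each strain contributed 1 library per sex at most. In 59 strains both sexes were present, 8 strains had only a female and 15 only a male library. The labels put strains in families by name. BXD recombinant inbred strains (C57BL/6J by DBA/2J) gave 32 female and 34 male libraries, AXB/BXA strains (A/J and C57BL/6J) 9 and 11, CXB strains (BALB/c and C57BL/6) 3 and 3, BXH strains (C57BL/6J by C3H/HeJ) 2 and 3, and classical inbred strains 21 and 23. Named alleles appear in the labels of BXD24/TyJ-Cep290<rd16>/J and BTBR T<+> tf/J. The study's methods mention more than 1 sample per sex for some strains, and the labels do not say whether a library is a pool. The strain is therefore the replicate here, and the error of a value is the spread over strains.

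Chemokines are small secreted proteins that bind to heparan sulphate on cell surfaces and guide leukocytes through receptors coupled to G proteins. Inflammatory members are induced in macrophages, stromal cells and endothelium, and those that bind CCR2 and CCR1 are known in obese fat as attractants of monocytes. Homeostatic members are made continuously by stroma, lymphoid tissue or epithelium, and in the groin the fat pad surrounds a lymph node and, in females, the ducts of a mammary gland. In bulk tissue of this kind, fewer cells of a type and less RNA per cell cannot be told apart, and this holds for every value below.

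Libraries held 6269154 to 78562648 estimated counts in total (median 30233245), and medians were 29991452 in females and 30770100 in males. At the median depth 3 counts, the floor used here for detection, correspond to 0.0992 CPM (counts scaled to the size of the library), and such floors cover counting error only. Every library held the adipocyte markers *Adipoq*, *Plin1*, *Plin4*, *Cidec* and *Fabp4*, whose summed level was 5445 to 61550 TPM (a level scaled for transcript length and library) in females and 12048 to 63720 in males. The summed TPM of 4 Y-linked genes went against the label in 3 libraries. It was 4.08 in the library labelled male of NZW/LacJ, against at least 57.3 in every other male, and 264 and 221 in the libraries labelled female of BXD69/RwwJ and BXD34/TyJ, against at most 15.4 in every other female. Of these 3 strains NZW/LacJ alone had libraries of both sexes. Results of chemokine members that rest on it are given with and without it, and receptor calls are given with it only. The library labelled female of BXD34/TyJ was also the shallowest and had the lowest female TPM, without a tie, for 13 of the 37 chemokine genes. The female library of AXB12/PgnJ had the highest female TPM for 13 of the 37, and calls that change without it are given. Single libraries set some of the female limits printed below. Without BXD34/TyJ the lowest female would be at 52 TPM for *Cxcl12*, 14.9 for *Cxcl14*, 3.80 for *Ccl5*, 1.81 for *Ccl2*, 3.61 for *Ccl25* and 2.66 for *Cx3cl1*. Without AXB12/PgnJ the highest would be at 322 TPM for *Cxcl12*, 3.22 for *Ccl3*, 2.51 for *Ccl4*, 87.2 for *Ccl2*, 1.99 for *Cxcl2*, 855 for *Ccl21a* and 255 for *Cxcl13*. The library labelled female of BXD69/RwwJ set the highest female values of *Ccl9* and *Ccl7*, with 173 and 62.9 TPM in the next.

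Promoter sequences are shown for 3 pairs of genes whose levels are set side by side below, each pair encoding ligands of a shared receptor from neighbouring genes. They are the 250 bases before the RefSeq start site in GRCm38.p6, written 5′ to 3′ on the strand of the gene. Of the 37 members 27 had an entry in the RefSeq promoter table, and *Ccl2*, *Ccl4*, *Ccl5*, *Ccl7*, *Ccl11*, *Ccl24*, *Ccl26*, *Cxcl5*, *Cxcl16* and *Cxcl17* did not. Capitals mark matches on either strand to a single spelling of each of 4 short motifs. These were the interferon response element (GAAA, then NN, then GAAA), the NF-kappaB motif (GGG, then NN, then TTTCC), the gamma-activated site TTCNNNGAA and the TATA box TATAAA. The pair *Cxcl9* (chr5:92328080-92328329, minus strand) and *Cxcl10* (chr5:92348890-92349139, minus strand) encodes ligands of CXCR3.
Cxcl9: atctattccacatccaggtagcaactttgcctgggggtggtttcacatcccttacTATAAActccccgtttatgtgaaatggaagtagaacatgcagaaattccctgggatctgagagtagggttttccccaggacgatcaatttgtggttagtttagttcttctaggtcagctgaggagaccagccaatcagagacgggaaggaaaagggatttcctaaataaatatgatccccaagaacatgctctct
Cxcl10: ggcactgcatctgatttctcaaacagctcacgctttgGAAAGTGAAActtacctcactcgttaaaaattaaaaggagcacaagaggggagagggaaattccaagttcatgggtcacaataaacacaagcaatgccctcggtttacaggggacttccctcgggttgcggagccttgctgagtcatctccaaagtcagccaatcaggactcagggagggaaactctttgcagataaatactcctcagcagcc
The pair *Ccl6* (chr11:83593088-83593337, minus strand) and *Ccl9* (chr11:83578637-83578886, minus strand) encodes ligands of CCR1 made by macrophages.
Ccl6: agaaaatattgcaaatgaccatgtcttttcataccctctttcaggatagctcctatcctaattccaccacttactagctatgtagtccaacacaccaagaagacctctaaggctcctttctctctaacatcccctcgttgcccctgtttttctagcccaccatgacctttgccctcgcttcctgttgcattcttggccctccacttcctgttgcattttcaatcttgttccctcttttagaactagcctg
Ccl9: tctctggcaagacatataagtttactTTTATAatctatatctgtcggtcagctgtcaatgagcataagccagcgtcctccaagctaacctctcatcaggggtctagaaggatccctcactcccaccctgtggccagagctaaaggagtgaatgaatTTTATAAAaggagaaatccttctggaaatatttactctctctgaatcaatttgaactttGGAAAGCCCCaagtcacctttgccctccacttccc
The pair *Ccl19* (chr4:42756366-42756615, minus strand) and *Ccl21a* (chr4:42773992-42774241, minus strand) encodes ligands of CCR7.
Ccl19: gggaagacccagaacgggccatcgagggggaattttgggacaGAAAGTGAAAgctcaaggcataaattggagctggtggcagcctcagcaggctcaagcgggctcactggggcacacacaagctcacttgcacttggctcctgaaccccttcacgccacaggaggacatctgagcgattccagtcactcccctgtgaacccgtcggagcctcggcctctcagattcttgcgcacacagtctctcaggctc
Ccl21a: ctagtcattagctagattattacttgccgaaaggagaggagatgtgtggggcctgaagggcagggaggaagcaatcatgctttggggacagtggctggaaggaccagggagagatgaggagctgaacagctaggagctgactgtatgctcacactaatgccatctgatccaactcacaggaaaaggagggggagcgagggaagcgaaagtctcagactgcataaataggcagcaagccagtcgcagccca

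In these windows *Cxcl10* and *Ccl19* each held the interferon response motif, at -213 to -204 and at -208 to -199 from the start, whereas the letters were not found in that of *Cxcl9*. In the GENCODE annotation *Ccl19* reaches to chr4:42756577, so most of its window, including the motif, lies inside the gene as annotated there. Over all 27025 promoters searched, 3.04% held this motif, and 3 of the 27 members did (*Ccl19*, *Cxcl10* and *Cxcl14*). The *Ccl9* window held the NF-kappaB motif on the minus strand at -35 to -26, together with TATA boxes at -224 to -219 and, overlapping on opposite strands, at -94 to -89 and -92 to -87. None of the 4 motifs was found in the windows of *Ccl6* or *Ccl21a*. The spelling searched for the NF-kappaB motif was in 5 of the 27 members (*Ccl9*, *Ccl20*, *Cxcl1*, *Cxcl2* and *Cxcl3*) and in 1.4% of all promoters. Other spellings of these motifs were not searched, so a window without a mark may still hold such a site. The gamma-activated site was in 2 members against 7.18% of all promoters, and the TATA box, which *Cxcl9* had at -195 to -190, in 8 members against 13%. A match of letters is a description and not evidence that a factor binds.

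The order of the members by level is given in TPM, which is scaled for transcript length. The 8 genes with the highest median over all libraries were *Ccl6*, *Cxcl12*, *Ccl11*, *Cxcl14*, *Ccl9*, *Ccl8*, *Cxcl9* and *Ccl5*. *Ccl6* spanned 17.2 TPM in the MA/MyJ female to 473 TPM in the BXD6/TyJ female, with a female median of 96.7. In males it spanned 26.7 TPM in CXB11/HiAJ to 633 TPM in KK/HlJ, with a median of 152. *Cxcl12*, the stromal retention signal for leukocytes and progenitors, had medians of 121 TPM in females and 112.3 in males, with extremes of 9.01 and 476 in females and of 39.2 and 273 in males. The middle of the *Cxcl12* distribution lay at nearly the same level in the sexes. *Cxcl14*, made by stroma and epithelium, had medians of 57.4 and 53 TPM and ranges of 3.17 to 162 in females and 15 to 135.3 in males. *Ccl8*, a ligand of CCR8 in the mouse, had medians of 35.4 and 37.1 TPM, and its highest female value of 367, in AXB12/PgnJ, was far above the next of 186. *Cxcl9*, which attracts activated T cells, had medians of 30.6 and 34.3 TPM. Its highest female value of 658 was again that of AXB12/PgnJ, with 100.7 in the next female, while the highest male reached 95. *Cxcl9* did not pass the test for sex described below (log2FC -0.17, edgeR adjusted p = 0.113), but without AXB12/PgnJ it passed as lower in females (-0.22, adjusted p = 0.0192, range over alternatives 0.0192 to 0.611). The sexes overlapped widely in each of these 8 genes, and the spread between strains was several times larger than the distance between the medians.

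**Figure D1:**
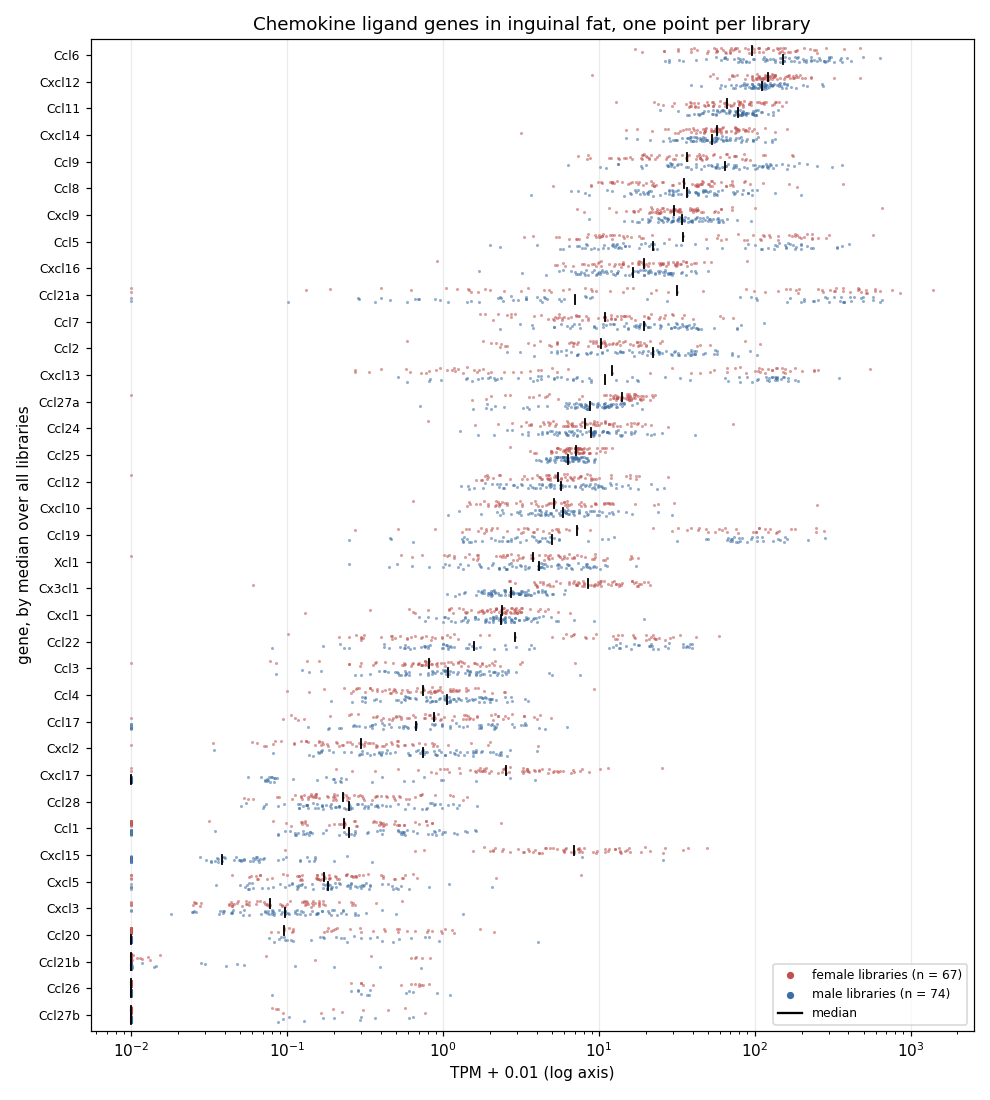
Level of each chemokine ligand gene in every female and male library on a log scale of TPM, with genes in order of their median. A reader should see *Ccl6* and *Cxcl12* near 100 TPM at one end, genes such as *Ccl26* and *Ccl27b* near 0 at the other, and wide ranges in *Ccl21a*, *Ccl19* and *Cxcl13*.

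At the other end, 7 members did not pass the filter on low counts and were not tested for sex. *Ccl26*, an eotaxin, reached no more than 3 counts in any library. *Ccl27b* exceeded 3 counts in 3 libraries and *Ccl21b* in 8, and both have near-identical copies, so that the split of reads between copies is uncertain. *Ccl20*, the ligand of CCR6 on T helper and B cells, exceeded 3 counts in 26 libraries, and *Ccl1*, a ligand of CCR8, in 51. The neutrophil attractants *Cxcl3* and *Cxcl5* exceeded 3 counts in 87 and 89 libraries, with medians below 0.2 TPM in each sex. Their presence could therefore be read in most libraries, but a difference between the sexes was not tested.

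Sex was compared within the 59 matched strains with edgeR's quasi-likelihood test, a term for strain and Benjamini-Hochberg adjustment over 16765 genes, and log2FC is female minus male on the scale of TMM-scaled CPM. Of the 30 members tested, 14 were called, 6 higher and 8 lower in females, while 58.1% of all genes tested were called (28.4% higher and 29.8% lower). The share of members called was thus not above that of all genes. The median log2FC was -0.03 over members and 0.01 over all genes, and the median absolute log2FC was 0.30 over members and 0.17 over all genes. With library totals in place of TMM the median of all genes moved to 0.12. Among the called members, *Ccl2*, *Ccl3*, *Ccl4*, *Ccl6*, *Ccl7*, *Ccl9*, *Ccl11* and *Cxcl2*, inflammatory attractants of myeloid cells, were lower in females. The 6 that were higher were the epithelial *Cxcl15*, *Cxcl17*, *Ccl25* and *Ccl27a*, the membrane-bound *Cx3cl1* and the lymphoid *Ccl21a*. Of 5 inflammatory CC chemokines of macrophages and T cells (*Ccl3*, *Ccl4*, *Ccl5*, *Ccl6* and *Ccl9*), 4 were lower in females, and of 4 monocyte attractants (*Ccl2*, *Ccl7*, *Ccl8* and *Ccl12*), 2 were. The 16 members not called had log2FC between -0.20 (*Cxcl1*) and 0.56 (*Ccl19*). Of these 16, 13 changed sign and 7 were called under at least 1 of 14 alternative settings, so no direction is given for them.

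**Figure D2:**
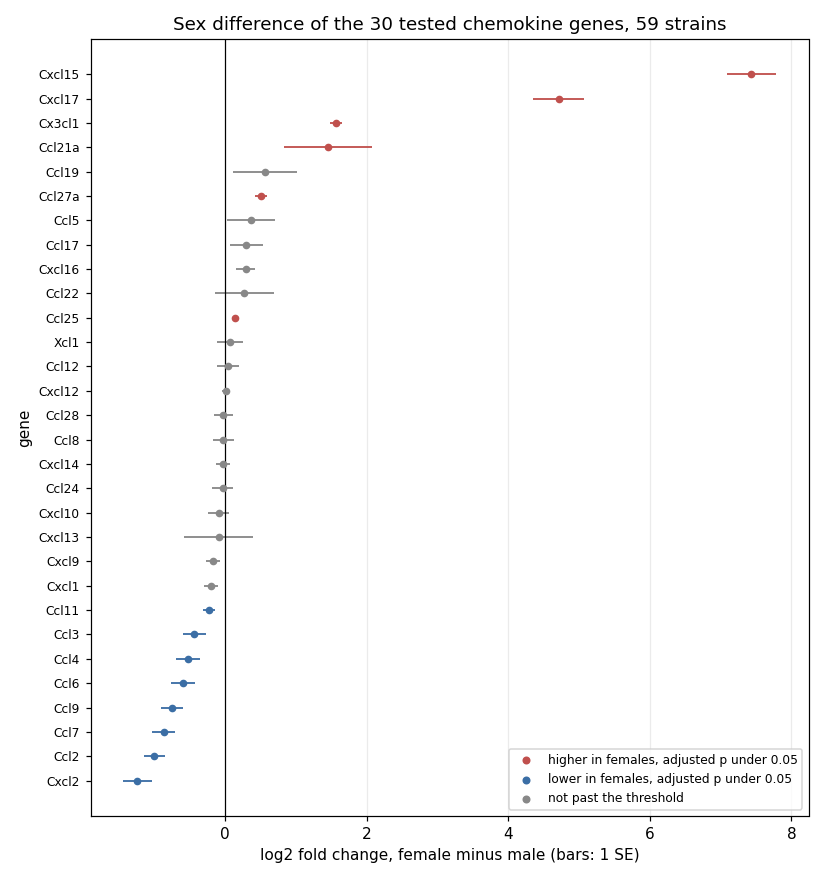
Female minus male log2FC of the 30 tested chemokine ligand genes with standard errors, from the paired fit over 59 strains, with genes that passed the threshold marked. A reader should see *Cxcl15* (7.43) and *Cxcl17* (4.71) far to the female side and *Cxcl2* (-1.24) and *Ccl2* (-1.0) farthest to the male side.

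Inflammatory CC chemokines attract monocytes, macrophages and T cells. *Ccl9* (chr11:83572919-83578636) spanned 7.38 to 175 TPM in females with a median of 36.6, and 6.33 to 363 TPM in males with a median of 64.5. Its mean was 45.8 ± 26.7 CPM in females and 86.1 ± 66.4 in males (SD, n = 59 strains), a log2FC of -0.76 ± 0.16 (SE, edgeR adjusted p = 3.83e-05), and it was lower in the female of 44 strains. *Ccl6* (chr11:83587882-83593087) was lower in the female of 43 of 59 strains, with means of 67.8 ± 38.3 and 111.1 ± 78.9 CPM and a log2FC of -0.60 ± 0.17 (adjusted p = 0.00179). The upper male values of *Ccl6* and *Ccl9* lay above those of every female, and the lower ends of the sexes overlapped.

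*Ccl3* and *Ccl4*, the macrophage inflammatory proteins, were low, with female and male medians of 0.810 and 1.06 TPM for *Ccl3* and of 0.737 and 1.05 TPM for *Ccl4*. *Ccl4* ranged from 0.0899 to 9.33 TPM in females and from 0.181 to 3.49 TPM in males. It had a log2FC of -0.53 ± 0.17 (edgeR adjusted p = 0.00581) and was lower in 44 of 59 females. *Ccl3* ranged from 0 to 7.03 TPM in females and from 0.0754 to 7.63 TPM in males, and had a log2FC of -0.44 ± 0.16 (adjusted p = 0.0177, lower in 42 of 59 females). The highest female of both genes was that of AXB12/PgnJ and the highest male that of CE/J. These 2 calls were less firm than those of *Ccl6* and *Ccl9*: with library totals *Ccl3* was at -0.33 (adjusted p = 0.0837, range over alternatives 0.00302 to 0.088), and on log2(TPM + 1) *Ccl4* was at -0.20 (adjusted p = 0.0537, range 0.000534 to 0.0537). *Ccl5*, made by T cells, spanned 3.33 to 573 TPM in females and 2.00 to 401 in males around medians of 34.6 and 22.3, and did not pass the test (log2FC 0.36 ± 0.34, adjusted p = 0.359).

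Ligands of CCR2 recruit monocytes from blood. *Ccl2* (chr11:82035571-82037453), the classical monocyte attractant, spanned 0.584 to 108.6 TPM in females with a median of 10.3, and 2.56 to 103.96 TPM in males with a median of 22.3. The highest female values were those of AXB12/PgnJ and of the library labelled female of BXD69/RwwJ (87.2), with 51.4 TPM in the next, and the middle of the male distribution was higher. Mean expression was 5.65 ± 5.76 CPM in females and 10.9 ± 7.97 in males, a log2FC of -1.0 ± 0.14 (edgeR adjusted p = 2.89e-08), and *Ccl2* was lower in the female of 49 of 59 strains. *Ccl7* (chr11:82045712-82047525), its neighbour, spanned 1.73 to 72.2 TPM in females and 2.33 to 115 TPM in males with medians of 10.9 and 19.6. Its log2FC was -0.87 ± 0.16 (adjusted p = 3.32e-06), lower in 45 of 59 females. The other members of the same stretch of chromosome 11 did not pass the test, with log2FC of 0.04 ± 0.16 for *Ccl12* and -0.03 ± 0.15 for *Ccl8*, apart from *Ccl11* below. In males *Ccl2* and *Ccl7* peaked in the same library, that of BXD19/TyJ.

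The eosinophil attractant *Ccl11* (chr11:82057823-82062955), eotaxin, was among the most abundant members, with 13 to 159 TPM in females (median 67.0) and 24.7 to 141.4 TPM in males (median 77.9). Its difference was small, with means of 41.5 ± 17.9 and 46.7 ± 13 CPM and a log2FC of -0.23 ± 0.087 (edgeR adjusted p = 0.0204, lower in 43 of 59 females). With library totals it was -0.12 (adjusted p = 0.16, range over alternatives 0.00959 to 0.228), so the call depends on the scaling. *Ccl24*, a ligand of the same receptor CCR3, had medians of 8.17 and 8.86 TPM and did not pass the test. Among the attractants of neutrophils, *Cxcl2* (chr5:90903871-90905938) was low in most libraries, with medians of 0.290 TPM in females and 0.742 in males and highest values of 4.09 (AXB12/PgnJ) and 4.03. It was lower in the female of 49 of 59 strains, with a log2FC of -1.24 ± 0.20 (adjusted p = 4.66e-07). *Cxcl1*, which acts on the same receptor CXCR2, had medians of 2.37 and 2.36 TPM and did not pass the test (log2FC -0.20 ± 0.10, adjusted p = 0.071), but it passed without AXB12/PgnJ (-0.23, adjusted p = 0.0314, range over alternatives 0.0314 to 0.458).

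Macrophage markers moved with these differences. The summed TPM of 8 macrophage markers had a median of 297 in females (range 95.3 to 1276) and 374 in males (range 82.8 to 955), and 7 of the 8 were called lower in females with log2FC of -0.83 to -0.25. The neutrophil marker *S100a8* was lower in females (log2FC -1.23), and the other 2 neutrophil markers tested were not called. Adipocyte markers were lower in females for 5 of 5 genes (-0.95 to -0.33) and endothelial markers for 4 of 5. The part of these markers in the sex differences of the chemokines was not tested.

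*Cxcl15*, a chemokine named for lung epithelium that attracts neutrophils, had the largest female excess. In females it spanned 0.0878 TPM in the library labelled female of BXD69/RwwJ to 49.6 TPM in I/LnJ with a median of 6.93, and 66 of 67 females exceeded 3 counts. In males the median was 0.0284 TPM, 12 of 74 exceeded 3 counts, and the highest values were 25.7 in the library labelled male of NZW/LacJ and 7.81 in PL/J. The sexes were nearly separate, and the exceptions were libraries that also stand apart in other genes. The log2FC was 7.43 ± 0.35 (edgeR adjusted p = 1.06e-26, higher in 57 of 59 females), and 7.58 without NZW/LacJ. *Cxcl17*, a chemokine of mucosal epithelium (chr7:25400053-25412886), had a female median of 2.55 TPM, and 63 of 67 females exceeded 3 counts. Its highest female value was 25.3 TPM in BXH22/KccJ, with 11.4 in the next, C3H/HeJ. In males its median was 0 and 10 of 74 exceeded 3 counts, with the highest values of 3.87 in PL/J and 2.68 in the library labelled male of NZW/LacJ. Its log2FC was 4.71 ± 0.36 (adjusted p = 1.25e-17, higher in 58 of 59 females), and 4.81 without NZW/LacJ. For both genes the fitted size depends on how values near 0 are treated, since on log2(TPM + 1) the differences were 2.90 for *Cxcl15* and 1.71 for *Cxcl17*, still past the threshold.

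*Cx3cl1*, fractalkine, is a membrane-bound chemokine of epithelium, endothelium and neurons that binds CX3CR1 on monocytes and macrophages. Its level spanned 0.0506 TPM in the library labelled female of BXD34/TyJ to 21.3 TPM in KK/HlJ in females with a median of 8.48, and 1.06 to 6.03 TPM in males with a median of 2.74. Means were 22.3 ± 10.2 and 7.18 ± 2.28 CPM, a log2FC of 1.57 ± 0.09 (edgeR adjusted p = 3.37e-23), and the female was higher in 59 of 59 strains. Over 14 alternatives the log2FC stayed between 1.37 and 1.68. *Cxcl16*, the other membrane-bound member, had medians of 19.5 and 16.5 TPM and did not pass the test (0.29 ± 0.13, adjusted p = 0.0556), but it passed without NZW/LacJ (0.32, adjusted p = 0.0384, range over alternatives 0.0205 to 0.158).

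*Ccl27a* and *Ccl25* are ligands of CCR10 and CCR9, known from skin and from thymus and gut. *Ccl27a* (chr4:41769467-41774247) reached 23 TPM in the female and 18.8 TPM in the male of BXD45/RwwJ, the highest of each sex, around medians of 14.1 and 8.81. Its log2FC was 0.51 ± 0.085 (edgeR adjusted p = 7.42e-07, higher in 48 of 59 females). *Ccl25* spanned 2.70 to 12.2 TPM in females and 3.93 to 9.47 in males, with medians of 7.09 and 6.36. It was the tested member that varied least between strains, and a difference of 0.13 ± 0.041 passed the threshold (adjusted p = 0.0048, higher in 36 of 59 females). Without the strain term in all libraries that of *Ccl25* was 0.09 (adjusted p = 0.112, range over alternatives 5.14e-05 to 0.112). *Ccl28*, the mucosal ligand of CCR10, had medians of 0.221 and 0.241 TPM and showed no difference past the threshold (-0.03 ± 0.13).

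**Figure D3:**
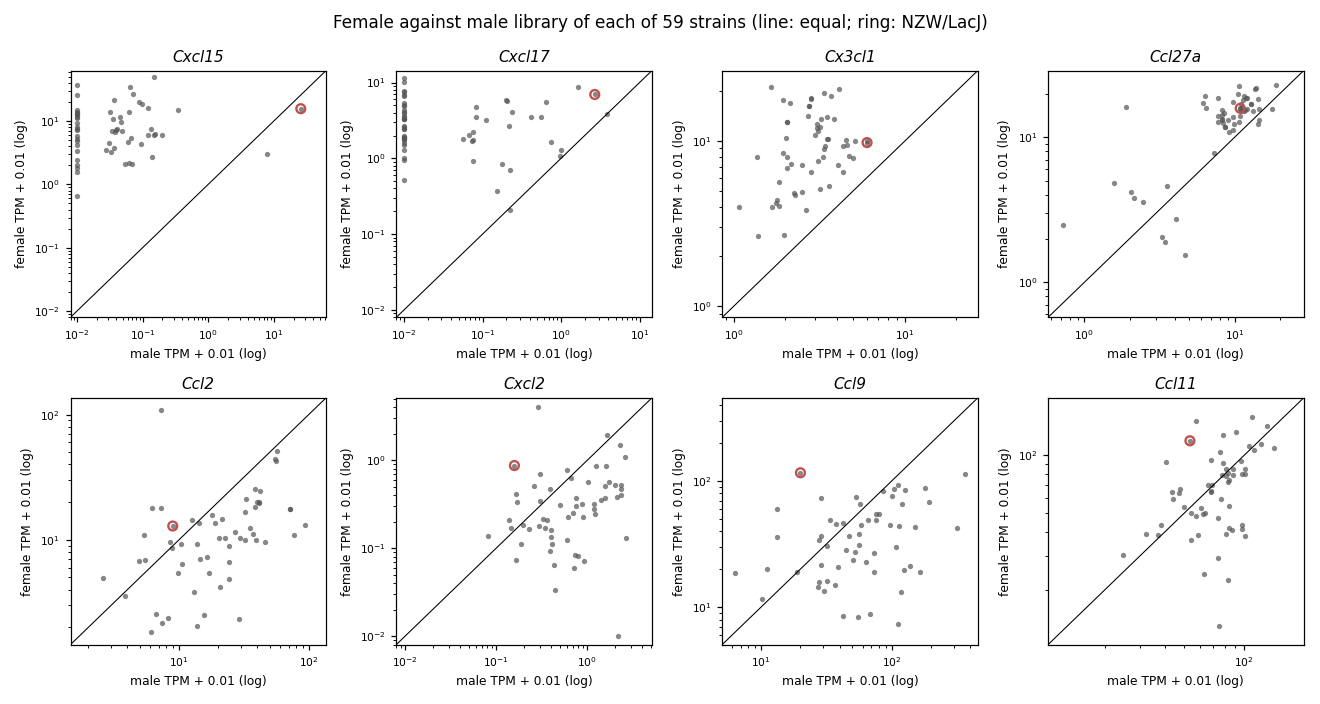
Female against male level of selected chemokine genes in the 59 matched strains, one point per strain, with a line of equality. A reader should see every strain on the female side for *Cx3cl1* (59 of 59) and most on the male side for *Ccl2* (49 of 59).

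Epithelial markers differed between the sexes in the same libraries. The summed TPM of 8 mammary epithelial markers (*Epcam*, *Krt8*, *Krt18*, *Krt14*, *Krt5*, *Csn3*, *Cldn3* and *Cldn7*) had a median of 527 in females and 2.76 in males, and each of the 8 was called higher in females with log2FC of 5.87 to 8.14. The lowest value under the female label was 1.48 TPM in the library of BXD69/RwwJ, and the highest males were the library labelled male of NZW/LacJ with 479 and PL/J with 256, the same libraries that stood out for *Cxcl15*. Within females *Cx3cl1* rose with the mammary list (r = 0.73, rho = 0.88, Benjamini-Hochberg permutation p = 6.11e-05 for each, r = 0.84 without the 2 farthest libraries). In males it did not follow in rank (rho = 0.13, adjusted permutation p = 0.385). *Cxcl15* rose with the list in females (r = 0.70, rho = 0.61, adjusted permutation p = 6.11e-05 for each, r = 0.57 without the 2 farthest). For *Cxcl15* and *Cxcl17* in males no relation is given, since most male libraries were at or under 3 counts. These relations were measured across libraries of 1 sex, and the part of epithelial tissue in the sex difference was not tested.

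The lymphoid chemokines had the widest ranges. *Ccl21a*, which draws T cells and dendritic cells into lymph nodes, spanned 0 to 1401 TPM in females and 0 to 657 in males, with medians of 31.8 and 7.08. *Ccl19*, the other ligand of CCR7, spanned 0.266 to 278 TPM in females and 0.240 to 283 in males, and *Cxcl13*, which draws B cells into follicles, 0.262 to 551 and 0.508 to 347. The highest female of *Ccl21a* and *Cxcl13* was AXB12/PgnJ, and the highest male of *Cxcl13* was SJL/J, with 189 TPM in the next. The mean log2 CPM of 6 B-cell markers, among them *Cd79a*, *Cd79b*, *Ms4a1*, *Cr2* and *Fcer2a*, fell into 2 clusters in each sex, a split made after the data were seen. It left a gap between 2.70 and 4.48 in females, with 34 low and 33 high libraries, and between 1.66 and 3.80 in males, with 42 low and 32 high.

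Levels on the sides of this split are given for members picked after their values were seen. *Ccl21a* had medians of 3.96 TPM (0 to 46.7) in low and 335 TPM (27.6 to 1401) in high females, and of 2.39 (0 to 20.4) and 312 (27.3 to 657) in males. For *Ccl19* the medians were 3.21 and 77.7 TPM in low and high females and 2.74 and 81.8 in males. The medians of *Cxcl13* were 1.38 and 116.6 TPM in females and 4.16 and 130 in males. *Ccl22*, a ligand of CCR4 made by dendritic cells, had medians of 0.597 and 16.9 TPM in females and of 0.807 and 21.1 in males. For *Ccl5* they were 10.6 and 141.8 TPM in females and 12.5 and 159 in males. The ranges of the sides did not overlap for *Cxcl13* in either sex (highest low female 12.1 and lowest high female 21.3 TPM, 17.8 and 26.5 in males) or for *Ccl21a* in males, and overlapped for *Ccl21a* in females and for *Ccl19*, *Ccl22* and *Ccl5* in both sexes. *Cxcl16*, *Xcl1* and *Ccl17* also had higher medians on the high side, at 30.9 against 12.7, 6.70 against 2.34 and 1.47 against 0.479 TPM in females and at 26.7 against 10.3, 6.51 against 2.61 and 1.99 against 0.409 in males, with overlap. *Ccl11*, *Ccl9* and *Ccl6* lay the other way, with *Ccl9* at 44.6 TPM in low and 28.2 in high females and at 77.7 and 43.2 in males, *Ccl11* at 83.6 TPM in low and 53.4 in high females and at 85.5 and 57.3 in males, and *Ccl6* at 107.1 and 69.9 in females and 186 and 90.1 in males. The sides are groups defined from the libraries, so these levels are given without a test.

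**Figure D4:**
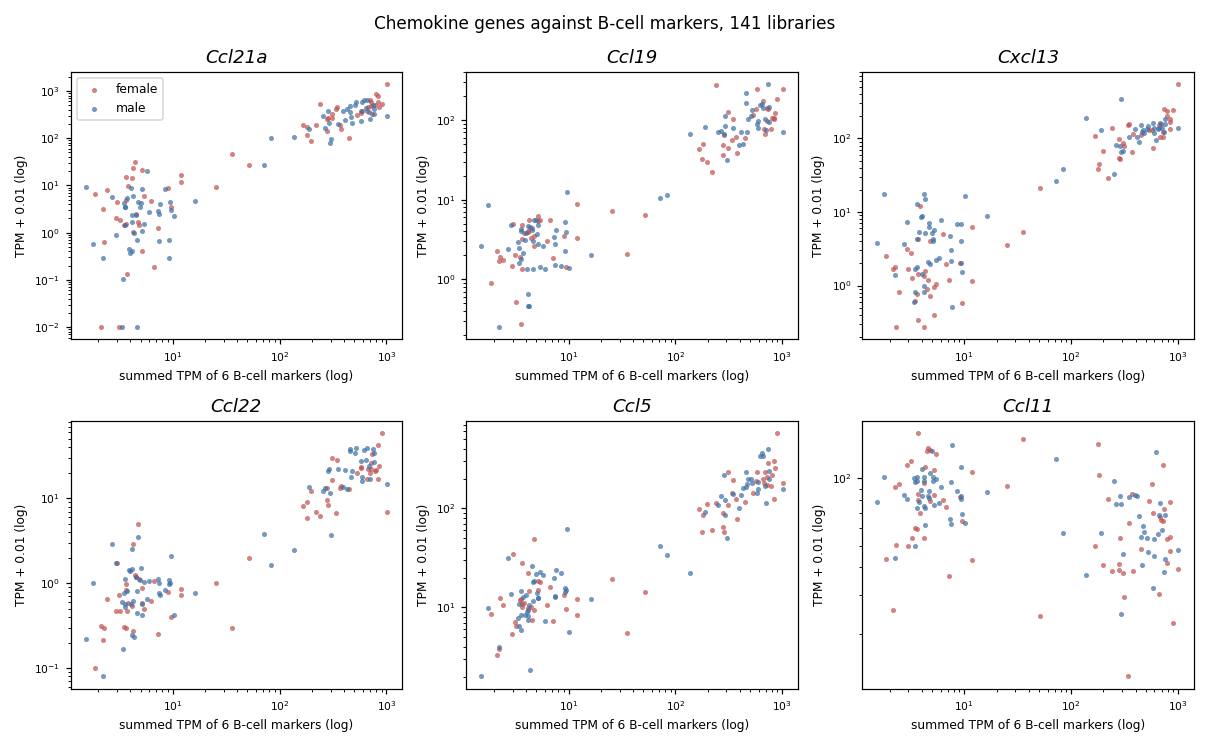
Level of lymphoid chemokines on a log scale of TPM against the summed TPM of the B-cell markers (log scale), one point per library, by sex. A reader should see 2 clouds in each sex, with *Ccl21a* near 3 TPM in one and above 300 TPM in the median of the other.

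The sex call of *Ccl21a* was lost with a term for the side of this split. In the main comparison its log2FC was 1.46 ± 0.62 (edgeR adjusted p = 0.0409, higher in 37 of 59 females). In the 15 strains with a high female and a low male library the female was higher in 15, and in the 8 strains with the opposite arrangement in 0. Where both libraries were low it was higher in 14 of 19 females and where both were high in 8 of 17. With a term for the side the log2FC was 0.54 (adjusted p = 0.0539), and without AXB12/PgnJ 1.35 (adjusted p = 0.0537), in a range of adjusted p over alternatives of 0.000257 to 0.518. Reads of *Ccl21a* can also be split with near-identical copies, of which Gm13304 exceeded 3 counts in 57 libraries, Gm21541 in 27 and Gm10591 in 8. With *Ccl21a* and *Ccl21b* summed the log2FC was 1.46, and with the predicted copies added 1.39. The other members of this group, *Ccl19* (0.56 ± 0.46), *Cxcl13* (-0.09 ± 0.49), *Ccl22* (0.27 ± 0.41) and *Xcl1* (0.07 ± 0.19), a lymphocyte attractant of dendritic cells, did not pass the test in females against males. With the term for the side 2 of them passed as lower in females, *Cxcl13* at -0.68 (adjusted p = 0.00177, range over alternatives 0.00177 to 0.999) and *Ccl22*, whose sign turned, at -0.38 (adjusted p = 0.0262, range 0.0262 to 0.927). *Ccl19* (-0.08) and *Xcl1* (-0.08) also turned sign with it and did not pass. The term comes from a split chosen after the data were seen, so none of these values is counted as a sex call.

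Within the clusters, *Ccl5* still varied with lymphocyte markers on each side, while *Ccl21a* and *Ccl22* did so in the high libraries only. *Ccl5* rose with the T-cell markers on each side, with rho of 0.64 in low and 0.85 in high females and of 0.76 in both male sides (r = 0.76, 0.88, 0.77 and 0.83, adjusted permutation p at most 0.00199). *Ccl21a* rose with B-cell markers in high females (r = 0.78, rho = 0.78, adjusted permutation p = 0.000426 for rho) and high males (r = 0.76, rho = 0.60, adjusted permutation p = 0.00714). In low libraries it did not pass the threshold (rho = 0.30 in females and 0.08 in males, adjusted permutation p = 0.271 and 0.79). *Ccl22* followed the T-cell list in the high libraries (rho = 0.60 in females and 0.80 in males, adjusted permutation p = 0.00528 and 0.000426) and not in the low ones (rho = 0.16 and 0.14).

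The relation of members to marker lists was computed for 660 pairs of 1 member and 1 list within a sex, of which 272 passed a permutation test on rho with Benjamini-Hochberg adjustment, and 296 did on log2(TPM + 1). Within the sides of the B-cell gap 184 of 1320 passed. *Ccl6* had the closest relation with macrophage markers outside the lymphoid group. It gave r = 0.83 and rho = 0.85 in 67 females and r = 0.87 and rho = 0.88 in 74 males (adjusted permutation p = 6.11e-05 for each, r = 0.80 and 0.86 without the 2 farthest), and rho of 0.80 to 0.93 within the 4 sides. *Ccl9* gave r = 0.81 and rho = 0.82 in females and 0.86 for both in males (adjusted permutation p = 6.11e-05), with rho of 0.74 to 0.92 within sides. *Ccl24* rose with progenitor markers (r = 0.67 and rho = 0.68 in females, r = 0.66 and rho = 0.64 in males, adjusted permutation p = 6.11e-05), with rho of 0.55 to 0.67 within sides. These 3 relations thus held on each side of the lymphoid split in each sex. *Ccl6* also rose with progenitor markers, with rho of 0.65 in females and 0.53 in males (r = 0.69 and 0.56, adjusted permutation p = 6.11e-05).

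*Ccl11* rose with adipocyte markers over all libraries, with r = 0.72 and rho = 0.70 in females and r = 0.54 and rho = 0.44 in males (adjusted permutation p for rho = 6.11e-05 and 0.00069). Within the sides this held in high females only (rho = 0.59, adjusted permutation p = 0.00786), with rho of 0.27 in low females, 0.42 in high and -0.26 in low males that did not pass. *Ccl11* also followed endothelial markers (rho = 0.64 in females and 0.48 in males), with rho of 0.57 in high and 0.30 in low females and of 0.43 and -0.11 in males. *Ccl6* followed the adipocyte list in females (rho = 0.48) and *Cxcl14* in males (rho = 0.47). *Cxcl10* rose with interferon-stimulated genes, with r = 0.69 and rho = 0.53 in females and r = 0.58 and rho = 0.49 in males (adjusted permutation p for rho = 6.11e-05 and 0.000165, r = 0.57 and 0.54 without the 2 farthest). Within the 4 sides its rho was 0.46 to 0.80, each past the threshold. *Cxcl9* gave r = 0.61 and rho = 0.50 in females and r = 0.47 and rho = 0.45 in males (adjusted permutation p for rho = 0.000165 and 0.0006), and 0.43 to 0.57 within sides, of which 2 of 4 passed. The interferon list was highest in the AXB12/PgnJ female, at 1580 summed TPM against a female median of 234.

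The closest relations with neutrophil, endothelial, skeletal muscle and keratinocyte markers were as follows. With neutrophil markers *Ccl7* had a rho of 0.53 and *Ccl2* of 0.50 in males (r = 0.43 and 0.41), and *Ccl8* of 0.42 and *Ccl2* of 0.36 in females (r = 0.39 and 0.34). With endothelial markers *Ccl6* reached a rho of 0.64 in females and *Ccl24* of 0.43 in males. With skeletal muscle markers, carried by some fat pads, rank and linear measures parted, as for *Ccl7* in females (r = 0.23, rho = 0.51) and *Cxcl9* in males (r = 0.29, rho = 0.43), and the other 2 of its closest pairs, *Ccl11* in females and *Ccl8* in males, had r of 0.12 and 0.14. Only 2 of 5 keratinocyte markers were expressed enough to be tested, and the closest members were *Ccl9* (rho = 0.44) and *Ccl7* (rho = 0.43) in females and *Ccl2* (rho = 0.40) and *Ccl7* (rho = 0.38) in males.

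Members that lie next to each other were compared in pairs, which were picked after their values were seen from 870 pairs within a sex, 336 of them past the threshold. Within the sides of the B-cell gap 237 of 1740 pairs passed. *Ccl6* and *Ccl9*, whose promoters are printed above, had r = 0.97 and rho = 0.97 in females and r = 0.97 and rho = 0.96 in males (adjusted permutation p = 6.49e-05 for rho), with rho of 0.93 to 0.98 within the 4 sides. *Ccl2* and *Ccl7* had r = 0.82 and rho = 0.80 in females and r = 0.91 and rho = 0.90 in males, and rho of 0.74 to 0.89 within sides. For *Ccl3* and *Ccl4* r was 0.57 and rho 0.53 in females, and r 0.71 and rho 0.73 in males. *Cxcl9* and *Cxcl10* had r = 0.62 and rho = 0.37 in females and r = 0.43 and rho = 0.40 in males (adjusted permutation p for rho = 0.00866 and 0.00185). Without the 2 farthest libraries r in females was 0.41. Their rho was below that of the pairs above in each sex, and this difference was not tested. For *Ccl19* and *Ccl21a* only values within sides are given, with rho of 0.63 and 0.52 in high females and males and of 0.05 and -0.05 in low ones.

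Strain was tested in the same fit. Of the 30 members 22 were called, while 71.2% of all genes tested were, and the median F was 1.89 over members against 1.92 over all genes. The 8 members with the largest F were *Cxcl15*, *Ccl27a*, *Ccl28*, *Cxcl9*, *Cxcl10*, *Ccl2*, *Ccl8* and *Ccl7*. The agreement of the sexes is given as the correlation of female and male log2 CPM over the 59 strains, with p adjusted over the 30 such relations computed, and was not computed for other genes. *Ccl28* (chr13:119623819-119654359) had F = 5.21 (edgeR adjusted p = 1.71e-08), with the lowest mean in 129X1/SvJ and the highest in BXA2/PgnJ, and its strain values agreed between the sexes (r = 0.65, rho = 0.59, adjusted permutation p = 0.00015 for each, r = 0.61 without the 2 farthest strains). *Cxcl9* (chr5:92321347-92328079) had F = 5.13 (adjusted p = 2.24e-08), lowest in SJL/J and highest in AXB12/PgnJ, and agreed between the sexes (r = 0.49, rho = 0.56, adjusted permutation p = 0.0004 and 0.000225, r = 0.46 without the 2 farthest). Without AXB12/PgnJ the F of *Cxcl9* was 3.34 (adjusted p = 2.97e-05). *Ccl2* had F = 3.31 (adjusted p = 3.14e-05), lowest in AXB13/PgnJ and highest in BXD64/RwwJ, with r = 0.46 and rho = 0.53 (adjusted permutation p = 0.00173 and 0.000225). The strain order of these 3 genes was partly shared by females and males, but this is not separate support for their strain calls. The sexes are the only repeat of a strain in the fit, so a large F and this agreement rest on the same values.

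*Cxcl10*, *Ccl8* and *Ccl7* agreed less between the sexes. *Cxcl10* (chr5:92346638-92348889) had F = 4.28 (edgeR adjusted p = 5.64e-07) but only r = 0.33 and rho = 0.32 (adjusted permutation p = 0.0353 and 0.0328), and r was 0.22 without the 2 farthest strains. Its F was 2.55 (adjusted p = 0.000857) without AXB12/PgnJ, and with limma-voom it was not called (adjusted p = 0.552, range over alternatives 3.62e-07 to 0.552). *Ccl8* had F = 2.72 (adjusted p = 0.000399, r = 0.38, rho = 0.30) and *Ccl7* F = 2.68 (adjusted p = 0.000465, r = 0.42, rho = 0.43). *Cxcl15* had the largest F, 5.83 (adjusted p = 1.89e-09), and on log2(TPM + 1) it was not called (adjusted p = 0.331, range over alternatives 1.02e-09 to 0.331). Males were near 0 in this gene apart from NZW/LacJ and PL/J, so no agreement of the sexes is given, and without NZW/LacJ its F was 4.62. The 8 members not called for strain were *Ccl4*, *Ccl6*, *Ccl12*, *Ccl17*, *Ccl24*, *Cxcl16*, *Cxcl17* and *Xcl1*. With *Ccl6* among them, the most abundant member differed between the sexes but not past the threshold between strains (F = 1.37, adjusted p = 0.132). With a term for the side of the B-cell gap *Ccl6* was called (F = 1.72, adjusted p = 0.0286, range over alternatives 0.0286 to 0.28), as were *Cxcl16* (adjusted p = 0.00191, range 0.00191 to 0.498) and *Ccl24* (adjusted p = 0.00924, range 0.00924 to 0.352). *Ccl24* was also called without AXB12/PgnJ (adjusted p = 0.0466), and *Ccl4* and *Ccl17* were with library totals (adjusted p = 0.0398 and 0.036). *Ccl5* (adjusted p = 0.144) and *Ccl21a* (adjusted p = 0.055) were no longer called with that term.

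*Ccl27a* had F = 5.31 (edgeR adjusted p = 1.17e-08), and its strains fell into 2 clusters. In 10 of the 59 matched strains it was under 5 TPM in both sexes, a limit chosen after the values were seen. Female and male values were 1.89 and 3.44 TPM in A/J, 4.81 and 1.56 in BALB/cJ, 2.70 and 4.05 in C3H/HeJ, and 2.04 and 3.28 in MA/MyJ. Among recombinant strains they were 1.53 and 4.63 TPM in AXB12/PgnJ, 3.79 and 2.14 in BXA2/PgnJ, 3.56 and 2.46 in BXH8/TyJ, 2.48 and 0.707 in CXB11/HiAJ, 4.63 and 3.55 in CXB13/HiAJ, and 4.16 and 2.04 in CXB6/ByJ. In the 49 other strains the lowest female was at 7.75 TPM, and 1 male, that of PL/J with 1.89 TPM, was under 5. Medians were 3.13 and 2.87 TPM in the low strains and 15.6 and 10.7 in the others. The parents C57BL/6J (15.2 and 11 TPM) and DBA/2J (22.5 and 10.7) were on the higher side, and no BXD strain (0 of 26 matched) was among the low ones. The library labelled female of BXD34/TyJ, the shallowest, has no male partner and was the lowest female, near 0 TPM. A/J and C3H/HeJ, the other parents of the AXB/BXA and BXH families, were low, as were the BALB/c substrain BALB/cJ and 2 of 9 AXB/BXA, 3 of 3 CXB, 1 of 1 BXH and 4 of 20 classical strains. Because of this split no correlation over all strains is given. Within the 49 other strains the sexes had r = 0.27 and rho = 0.35 (r = 0.34 without the 2 farthest), and within the 10 low strains r = -0.52 and rho = -0.41 (r = -0.22 without the 2 farthest). The limit was set on these same female and male values, which can distort both measures, so they are given without a test.

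**Figure D5:**
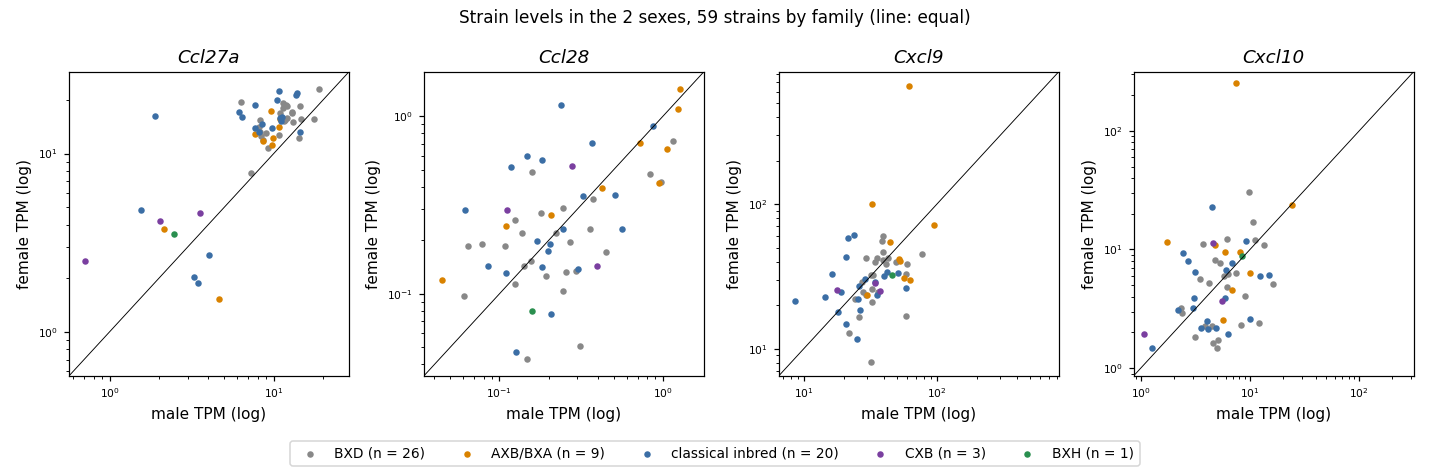
Female and male level in TPM of the chemokine genes with large strain differences, by strain and family. A reader should see *Ccl27a* under 5 TPM in both sexes of 10 strains, none of them BXD, and the AXB12/PgnJ female at 658 TPM for *Cxcl9*.

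Families were compared within each sex over BXD, AXB/BXA and classical strains, again with edgeR's quasi-likelihood test and adjustment over all genes. In females 4 of 32 members tested were called, while 12% of all genes were, and in males 2 of 29, while 7.07% were. *Cxcl9* was called in both sexes. In females its medians were 31.1 TPM in BXD, 41.9 in AXB/BXA and 27.2 in classical strains, with ranges of 7.29 to 71.3, 23.5 to 658 and 11.6 to 60.8, and the log2 difference of AXB/BXA from BXD was 1.75 (F = 25.2, adjusted p = 3.65e-06). Without AXB12/PgnJ this difference was 0.63 and not past the threshold (adjusted p = 0.0509, range over alternatives 9.98e-07 to 0.0665). In males the medians were 34, 52.1 and 26 TPM, with ranges of 21.1 to 77.2, 24.3 to 95 and 8.61 to 66.7 (log2 difference 0.48, F = 8.71, adjusted p = 0.0129). There the call remained without AXB12/PgnJ, with a difference of 0.45 (adjusted p = 0.0232). The families overlapped in each sex.

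The other family calls were in 1 sex each. *Cxcl10* in females had medians of 5.05, 9.60 and 3.87 TPM in BXD, AXB/BXA and classical strains (log2 difference of AXB/BXA from BXD 2.47, edgeR adjusted p = 9.5e-06), and a difference of 0.66 without AXB12/PgnJ (adjusted p = 0.342). *Ccl4* in females had medians of 0.702, 1.13 and 0.610 TPM (difference 1.17, adjusted p = 0.012), and 0.32 without that strain (adjusted p = 0.532). Both calls therefore rested on 1 library. *Cxcl17* in females was at 1.84, 3.22 and 4.3 TPM, and classical strains lay 1.12 above BXD on the log2 scale (adjusted p = 0.0352), with 1.12 also without AXB12/PgnJ (adjusted p = 0.0436). With limma-voom this call was lost (adjusted p = 0.0999, range over alternatives 0.0312 to 0.0999). *Ccl28* in males was at 0.207, 0.817 and 0.207 TPM (difference of AXB/BXA 1.39, adjusted p = 0.0176), and with limma-voom this call too was lost (adjusted p = 0.0689, range 0.0117 to 0.0689). In females *Ccl28* had a difference of 0.89 that did not pass (adjusted p = 0.27), and the difference between the sexes was tested only in the interaction below. CXB and BXH strains were too few to enter the test, and the median of *Cxcl17* was 2.40 TPM in 3 CXB and 16.6 in 2 BXH females.

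The interaction of sex and family was called for 0 of 30 members with edgeR, and 0.0% of all genes passed (adjusted p = 1 for every member). At an unadjusted p under 0.05 there were 2 members with edgeR, *Cxcl14* (p = 0.0082) and *Cxcl15* (p = 0.028), of 30 tested, while 4.04% of all genes were under this limit. With limma-voom 7 members and 5.48% of all genes were under it, and 0 genes were called.

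Between the parents of the BXD family, C57BL/6J and DBA/2J, 1 library per sex was available and there is no replicate check. *Ccl3* was lower in C57BL/6J in both sexes, with 0.417 against 1.24 TPM in females and 0.508 against 2.48 in males. BXD females ranged from 0.242 to 3.22 TPM and BXD males from 0.0754 to 4.99, so that 15 of 32 females and 25 of 34 males lay between the parents. *Cxcl15* was at 34.8 TPM in the C57BL/6J and 7.33 TPM in the DBA/2J female, and both males were at or near 0 (0.0547 and 0 TPM). Among BXD females 17 of 32 lay below both parents and 0 above. *Ccl5* was at 125 TPM in the female and 14 in the male of C57BL/6J, and at 11.8 and 133.6 in DBA/2J. These libraries lie on opposite sides of the B-cell gap, with summed B-cell markers of 369 TPM in the female and 5.07 in the male of C57BL/6J and of 3.49 and 265 in DBA/2J, so no parental direction is given for the lymphoid members.

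Receptors and 2 related ligands were read from a list of 25 genes, of which *Cxcr1* exceeded 3 counts in 10 libraries and was not tested. Of the 24 tested, 5 were higher and 3 lower in females and 16 did not pass, and their median log2FC was 0.25, while 58.1% of all genes were called with a median of 0.01. *Ackr4*, a scavenger of CCL19, CCL21 and CCL25, had means of 3.04 ± 1.72 CPM in females and 1.81 ± 3.0 in males (log2FC 1.03 ± 0.14, edgeR adjusted p = 6.42e-09, higher in 51 of 59 females). *Cx3cr1*, the receptor of *Cx3cl1*, was higher in females by 0.52 ± 0.14 (adjusted p = 0.00154, 40 of 59), and *Ackr1*, which carries chemokines across venules, by 0.21 ± 0.067 (adjusted p = 0.00564, 38 of 59). The platelet chemokines *Ppbp* (-0.75 ± 0.14, adjusted p = 8.4e-06, lower in 52) and *Pf4* (-0.50 ± 0.12, adjusted p = 0.000174, lower in 45) were lower in females. *Ccrl2*, a receptor without signalling, and *Cxcr6*, the receptor of *Cxcl16*, were called higher. *Ccr2*, the receptor of *Ccl2* and *Ccl7*, did not pass the test (-0.17 ± 0.093, adjusted p = 0.103, range over alternatives 0.012 to 0.574), and neither did *Ccr7* (0.57 ± 0.51, and -0.09 with the term for the side of the B-cell gap) nor *Cxcr3* (0.23 ± 0.20).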

How the data were processed

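RNA-seq libraries of iWAT were stranded and paired-end. Per the labels and the study's methods, the authors quantified transcripts with kallisto 0.46.1 against the Ensembl 97 transcriptome of GRCm38 (mm10) and used tximport to obtain gene values. The estimated counts deposited by the authors are not normalized between libraries, and 30.3% of values are not whole, since kallisto splits reads between transcripts. The TPM values, as the authors deposited them, account for transcript length and library size and so carry no depth. Of 36558 Ensembl identifiers 35856 were paired with a symbol through GENCODE M21, and chemokine genes with near-identical copies are uncertain. Promoters are from RefSeq (GRCm38.p6). Chow and HF/HS diet apply to every library, and the labels give no batch.

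Counts were rounded, filtered with filterByExpr of edgeR, grouping by sex (16765 genes) and scaled by TMM. Sex and strain were tested in ~ Strain + Sex over 59 matched strains with the quasi-likelihood test of edgeR (version 4.0.16, R 4.3.3), family within each sex, and sex by family as an interaction, with Benjamini-Hochberg adjustment over all genes and a threshold of 0.05. Standard errors were derived from the log2FC and its F statistic. The study's methods name limma with the same terms. The strain term pairs libraries by the strain in the labels. The deviations from the sex mean of both libraries of a strain correlated with a median of 0.55 (-0.31 to 0.80, over 0.1 in 45 of 59 strains), against -0.01 for libraries of different strains, and 37 females correlated best with the male of their own strain. Where nothing says that libraries come from separate animals, p-values measure the spread between these libraries.

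Correlations used log2 CPM with a prior count of 2, Pearson's r, Spearman's rho and two-sided permutation tests with 100000 resamples, whose smallest p is 1e-05. Marker lists were summarised per library as the mean log2 CPM, and as summed TPM in the text. Values named were, by rule, members called for sex, the 8 with the largest strain F, those called for family in both sexes, the 8 with the highest median TPM, those with over 2-fold difference between C57BL/6J and DBA/2J in the same direction in both sexes and a mean of at least 1 TPM in the higher, called receptors and, per marker list and sex, the 2 pairs with the largest rho. *Cxcl15* met the parental rule on a value of 0 in 1 male, so no male fold is given, and *Cxcl17* met the marker rule in males, where most libraries are near 0, and is not given. Of the receptor and marker lists, 2 genes are not reported here by name. Members and lists were chosen with earlier results of these data known. On counts simulated from these libraries the sex test recovered 195 of 196 changed genes with 11 false calls among 16725 genes, and the family test in females 199 of 200 with 21 among 18080. Recovery at a spread like that of *Ccl21a* (SD of the sex difference 4.61 on the log2 scale) was not tested. Recovery of sex differences as small as the log2FC of *Ccl25* (0.13) and *Ccl11* (-0.23) was not tested either.

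Alternatives were DESeq2 1.42.0, limma 3.58.1 (voom, log2(TPM + 1) and log2(TPM + 0.1)), RLE factors, library totals, totals without mitochondrially encoded genes, other filters, no replicate block, all libraries, and leaving out NZW/LacJ, the libraries against their label or the AXB19 sublines. A term for the side of the B-cell gap, leaving out AXB12/PgnJ and summing the *Ccl21* copies were chosen after seeing the data. Figures were drawn with matplotlib 3.10.9.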

Additional observations from a re-analysis of the deposited data

Results flagged for a closer look

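In AXB/BXA females, a group of 9 libraries, the AXB12/PgnJ library stood far above the other 8 for 3 of 32 chemokine genes examined. The gap to the next library was 0.509 of the whole range of log2 CPM for *Cxcl10*, 0.497 for *Ccl8* and 0.55 for *Cxcl5*, each above Dixon's 95% critical value for a group of 9, and chance flags about 1 in 20 groups. In TPM this library was at 251 for *Cxcl10* (30.6 in the next of all females), 367 for *Ccl8* and 7.72 for *Cxcl5* (2.17 in the next). Its summed interferon-stimulated genes (1580 TPM) and macrophage markers (1276 TPM) were also the highest of all females, as were its B-cell markers (1006 TPM against a median of 35.5). Its T-cell markers (828 TPM, median 34.9) were the next to highest and its adipocyte markers (6514 TPM, median 31255) the next to lowest. The part of these markers in the chemokine values was not tested.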

How the results depend on the processing

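The sex difference kept its direction in all 14 alternatives for each of the 14 called members and for *Ackr4*, *Cx3cr1*, *Ackr1*, *Ppbp* and *Pf4*. Counts moved by over 1.5 times in 9 of the comparisons of counts and settings. On log2(TPM + 1) 5 members were lower in females in place of 8. The replicate block is the strain term of the main fit. With it 14 members were called for sex, without it 12, and 10 in all libraries, and 3 receptors in place of 5 were higher in females with no replicate block. The calls lost without it were *Ccl21a* (0.51, adjusted p = 0.425), *Ccl3* (-0.43, adjusted p = 0.0513), *Ccl11* (-0.16, adjusted p = 0.172) and the receptors *Ackr1* (0.21, adjusted p = 0.0759) and *Cxcr6* (0.46, adjusted p = 0.16), and *Cxcl10* was gained (0.61, adjusted p = 0.0222, against -0.09 with it). Over all alternatives sex calls numbered 10 to 16 of the members.

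Strain calls fell from 22 to 13 with limma-voom, and those of all genes from 71.2% to 61.7%. Family calls in females were 4 in the main fit and 1 with limma-voom, 1 on log2(TPM + 1) and 1 without AXB12/PgnJ. With no filter there were 5, and without the libraries whose Y-linked expression goes against the label also 5. In males family calls were 2, and 1 with limma-voom, 6 with no filter and 4 with a term for the side of the B-cell gap. Of all genes 4.24%, 2.28%, 9.39%, 11.9% and 7.86% were called under these settings, in this order, in females and 5.39%, 7.32% and 8.5% in males. The cause of these changes was not tested. Depth limits the genes near 3 counts (*Ccl3*, *Ccl4*, *Ccl17*, *Cxcl2* and the 7 untested members), where a difference that did not pass may not have been detectable. With 1 library per strain and sex, a difference between single strains has no replicate check.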
